A study of Mus musculus with 4 samples.

Results

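The 8 genes of retinoic acid signalling described here were followed across the embryonic mouse forebrain: *Aldh1a3*, *Crabp1*, *Crabp2*, *Cyp26b1*, *Rara*, *Rarb*, *Rxra* and *Rxrg*. They were chosen by symbol from the 43346 genes of the count matrices, and all 8 had counts in the data. The question was which region and which stage of neurogenesis makes, binds, degrades or senses retinoic acid. Droplet single-cell RNA sequencing had been done on wild-type C57BL/6 embryos at E12.5, in the phase of neurogenesis. A single library came from the cortex (CTX), the source of excitatory neurons. The others came from the ganglionic eminences, which lie ventrally and give rise to inhibitory neurons, namely the lateral (LGE), the medial (MGE) and the caudal one (CGE). Tissue of several embryos of both sexes was pooled for each library, no group carried a mutation or a treatment, and no region had a replicate library.

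Retinoic acid is made from vitamin A in 2 oxidation steps, of which the second is carried out by the retinaldehyde dehydrogenases, *Aldh1a3* among them. In the cell it is held by the binding proteins encoded by *Crabp1* and *Crabp2* and is broken down by enzymes of the *Cyp26* family. Its nuclear receptors are pairs of a retinoic acid receptor (*Rara*, *Rarb*) and a retinoid X receptor (*Rxra*, *Rxrg*) that sit on DNA, and *Rarb* is itself a classical target of the signal. In the forebrain the lateral eminence and the striatum that grows from it are known as sites of retinoid signalling.

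Receptor pairs bind direct repeats of a short half-site, and a gap of 5 bases is the arrangement best known for retinoic acid receptors. RefSeq promoter windows (GRCm38.p6, 250 bases before to 50 after a start) were at hand for 6 of the 8 genes, 11 windows in all, and none was at hand for *Aldh1a3* or *Crabp2*. Both strands were searched for a direct repeat of half-sites, each being AGGTCA or one of the related forms GGTTCA as well as AGTTCA and in addition GGGTCA. With a gap of 5 bases a match was found in 32 of all 32851 windows (0.0974%), and *Rarb* was the only one of the 8 genes among them. *Cyp26a1*, a relative of *Cyp26b1* and another well-known target, was also among them. With a gap of 1 or 2 bases, 73 windows (0.222%) and 88 windows (0.268%) matched, and none belonged to these genes. The 250 bases upstream of the *Rarb* start are shown first, with the repeat in capitals, because this gene both senses the signal and answers to it. The repeats of *Rarb* and *Cyp26a1* follow, with the half-sites in capitals and the gap in lower case. The *Rarb* repeat lies from 53 to 37 bases before the start, at chr14:16575513-16575529 on the minus strand, the strand of the gene. That of *Cyp26a1* lies at chr19:37697776-37697792 and is written along the strand opposite to the gene. A match of letters is a description and was not tested for binding.
Rarb upstream, chr14:16575477-16575726, minus strand: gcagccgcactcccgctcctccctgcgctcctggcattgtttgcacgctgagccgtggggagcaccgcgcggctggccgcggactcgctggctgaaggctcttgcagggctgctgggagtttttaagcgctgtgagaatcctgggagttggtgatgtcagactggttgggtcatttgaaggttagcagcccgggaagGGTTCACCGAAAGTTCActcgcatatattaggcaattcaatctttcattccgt
Rarb repeat: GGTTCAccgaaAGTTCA
Cyp26a1 repeat: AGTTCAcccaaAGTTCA

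Levels are given as CPM, which here means UMIs (unique molecular identifiers, 1 per captured RNA molecule) of a gene per 1000000 UMIs summed over all cells of 1 class in 1 library. Cells were called high-Nestin or high-Dcx when ln(1 + UMIs per 10000) of *Nes*, a gene of ventricular zone progenitors, or of *Dcx*, a gene of young neurons, was above 1.5. They are also called progenitors and neurons here, although some high-Dcx cells still held the cycling genes *Mki67* and *Ccnd2*. CTX gave 879 high-Nestin and 779 high-Dcx cells, LGE gave 580 and 2046, MGE gave 511 and 2183, and CGE gave 165 and 2274. Each sum held 1515986 to 15855093 UMIs, and kept cells had a median of 6961.5 to 8266 UMIs by library. Values in square brackets are exact 95% intervals. The error they describe is that of counting alone and leaves out variation between embryos and dissections, so a difference between regions is a difference between these 4 libraries. Fewer cells that express a gene and less RNA per cell cannot be told apart in such sums. Over all kept cells, fixed markers went with the labels of the dissections. In high-Nestin cells alone the 4 LGE markers set CTX apart little, at 1150 CPM in LGE and 1024 CPM in CTX. The values that follow are over all kept cells. The summed level of 5 cortical markers was 1332 CPM in CTX and at most 66.7 CPM elsewhere, that of 3 MGE markers was 1289 CPM in MGE and at most 123 CPM elsewhere, that of 4 LGE markers was 2812 CPM in LGE and at most 938 CPM elsewhere, and that of 3 CGE markers was 2151 CPM in CGE and at most 458 CPM elsewhere.

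Transcripts of the synthesis gene were found mainly in LGE and those of the degrading enzyme mainly in CGE. Among high-Dcx cells the receptor genes *Rarb* and *Rxrg* were highest in LGE. In high-Dcx cells 4 of the 8 genes stood at least 2-fold higher in 1 library than in the next, against 6.29% of all 14399 genes with enough UMIs. These were *Aldh1a3*, *Rarb* and *Rxrg* in LGE and *Cyp26b1* in CGE. In high-Nestin cells 5 of the 8 genes had the 20 UMIs required for this comparison and 1 passed it, *Rarb* in LGE, against 4.34% of 12919 genes. The background is a share of all genes, and these 8 were picked with earlier results of the data known.

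**Figure D1:**
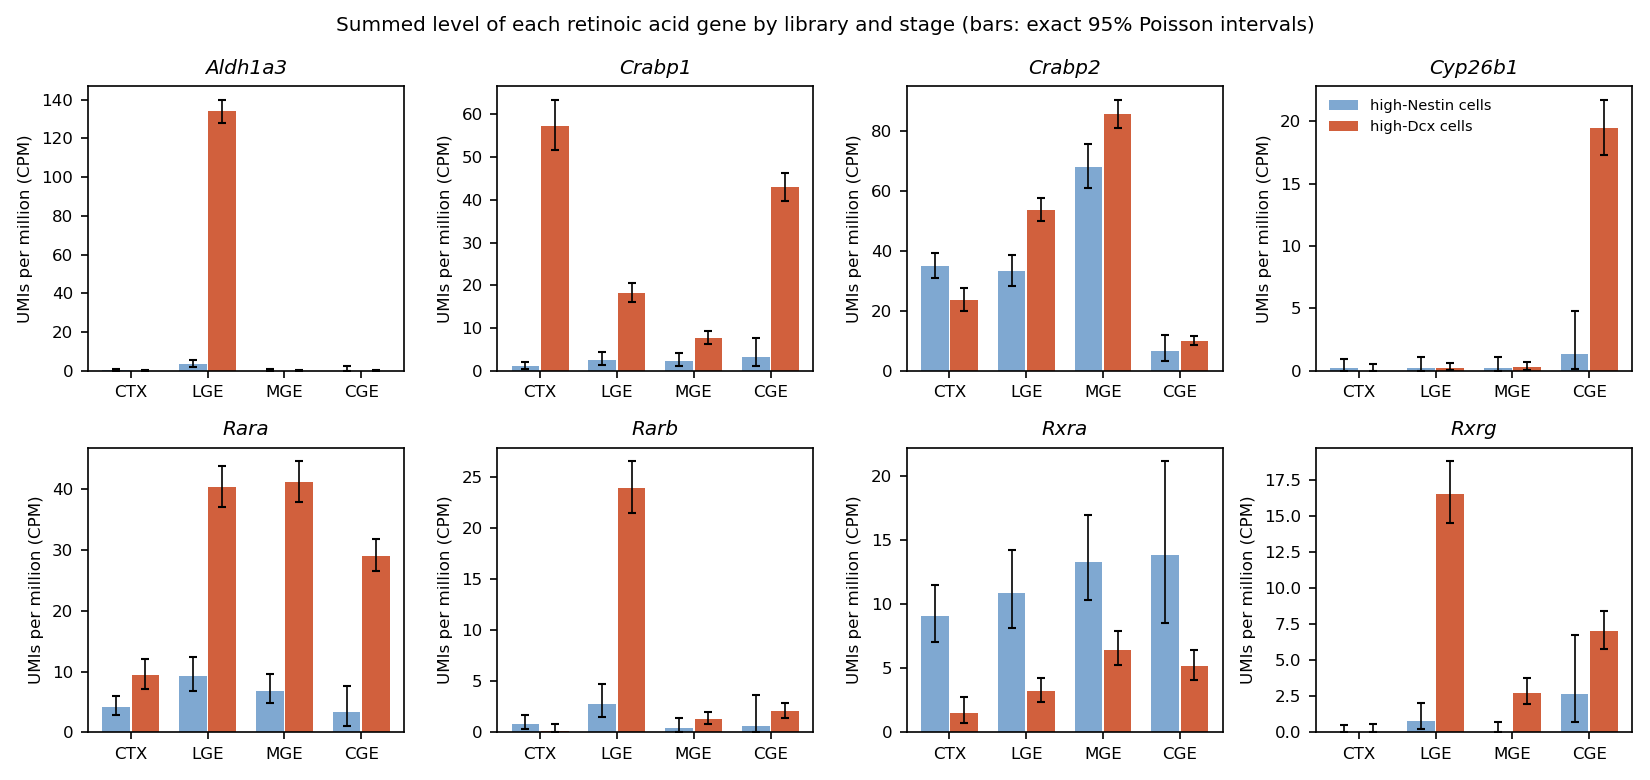
Summed level in UMIs per 1000000 (CPM, linear axes that start at 0 and differ between panels) of the 8 genes in high-Nestin (blue) and high-Dcx (red) cells of each library, with exact 95% Poisson intervals. Aldh1a3 stands at 134 CPM in LGE high-Dcx cells and Cyp26b1 at 19.4 CPM in CGE high-Dcx cells, and Rxra alone is higher in high-Nestin cells of all 4 libraries.

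*Aldh1a3* (ENSMUSG00000015134.10, GRCm38 chromosome 7, 66390890–66427517, minus strand) encodes the retinaldehyde dehydrogenase of this set. In high-Dcx cells it stood at 134 CPM [128–140] in LGE, from 1920 UMIs. MGE and CGE high-Dcx cells each held 1 UMI, and CTX high-Dcx cells held 0, which allows up to 0.454 CPM. The LGE level was 1948-fold [349–76984] that of MGE and at least 295-fold that of CTX. In high-Nestin cells it stood at 3.43 CPM [2.00–5.49] in LGE and 0.264 [0.0320–0.955] in CTX, with 0 UMIs in MGE and CGE. Over all kept cells 2684 UMIs came from LGE and 6, 3 and 3 from CTX, MGE and CGE, and within LGE few came from high-Nestin cells.

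Within the LGE the *Aldh1a3* level differed between the other classes too. Cells past neither gate stood at 44.9 CPM [41.7–48.3]. Cycling high-Dcx cells, which also held *Mki67* and *Ccnd2* and lacked the mature genes *Mapt* and *Rbfox3*, stood at 79.6 CPM [70.5–89.4]. Mantle cells, high-Dcx cells below 0.5 for *Nes*, *Hes5*, *Mki67*, *Ccnd1* and *Ccnd2*, stood at 145 CPM [133–159], 1.83-fold [1.57–2.12] the cycling cells. After every cell had been thinned to 3000 UMIs, 16.6% [15.01–18.3] of 2010 LGE high-Dcx cells and 0.890% [0.289–2.06] of 562 LGE high-Nestin cells held a UMI of *Aldh1a3*. The unthinned shares were 22.5% and 1.90%. Erythroid barcodes, which should lack the gene, held one in 1.75% [0.0444–9.39] of 57 in LGE, at a median of 10626.5 UMIs against 6441.5 in high-Dcx cells and 8417.5 in high-Nestin cells. The high-Dcx share was above that interval, and the high-Nestin share was not. Erythroid medians were 10085 to 13949 UMIs by library and those of high-Dcx cells 6356 to 7998, and thinning left out 11 to 50 high-Dcx and 2 to 28 high-Nestin cells per library. Where a share given further on lies below the limit or interval of the erythroid barcodes, these were too few to set it apart from background.

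The stage difference was tested for every gene with edgeR on 8 sums, the 2 stages in each of the 4 libraries, with the library as a block. Of 13414 genes tested 27.4% were called higher in high-Dcx and 27.3% higher in high-Nestin cells, at an adjusted p below 0.05 and a log2 fold change beyond 0.25. Among the 7 of the 8 genes that passed the low-count filter, 4 were called higher in high-Dcx cells (*Aldh1a3*, *Crabp1*, *Rara* and *Rxrg*), 1 was called higher in high-Nestin cells (*Rxra*) and 2 passed neither way (*Crabp2* and *Rarb*). *Cyp26b1* did not pass the filter. Several of them passed it only through the group where they were high, so this count describes the genes and supports nothing further. The count changed with the libraries used. Without CTX it rose to 7 of 8 genes higher in high-Dcx cells, where 27.1% of all genes were, and without LGE it fell to 2 of 5, where 21.6% of all genes were.

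For *Aldh1a3* the log2 fold change was 4.90 ± 0.95 (SE, 4 libraries) with an adjusted p of 0.00712 (edgeR). The direction rested on LGE, where the ratio of high-Dcx to high-Nestin cells was 39.1 [24.3–67.2], since the other libraries held at most 2 UMIs in either stage. With DESeq2 on the same sums the log2 fold change was 0.40 with an adjusted p of 0.890, and over the alternatives tried the adjusted p ranged from 8.67e-05 to 0.890.

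**Figure D2:**
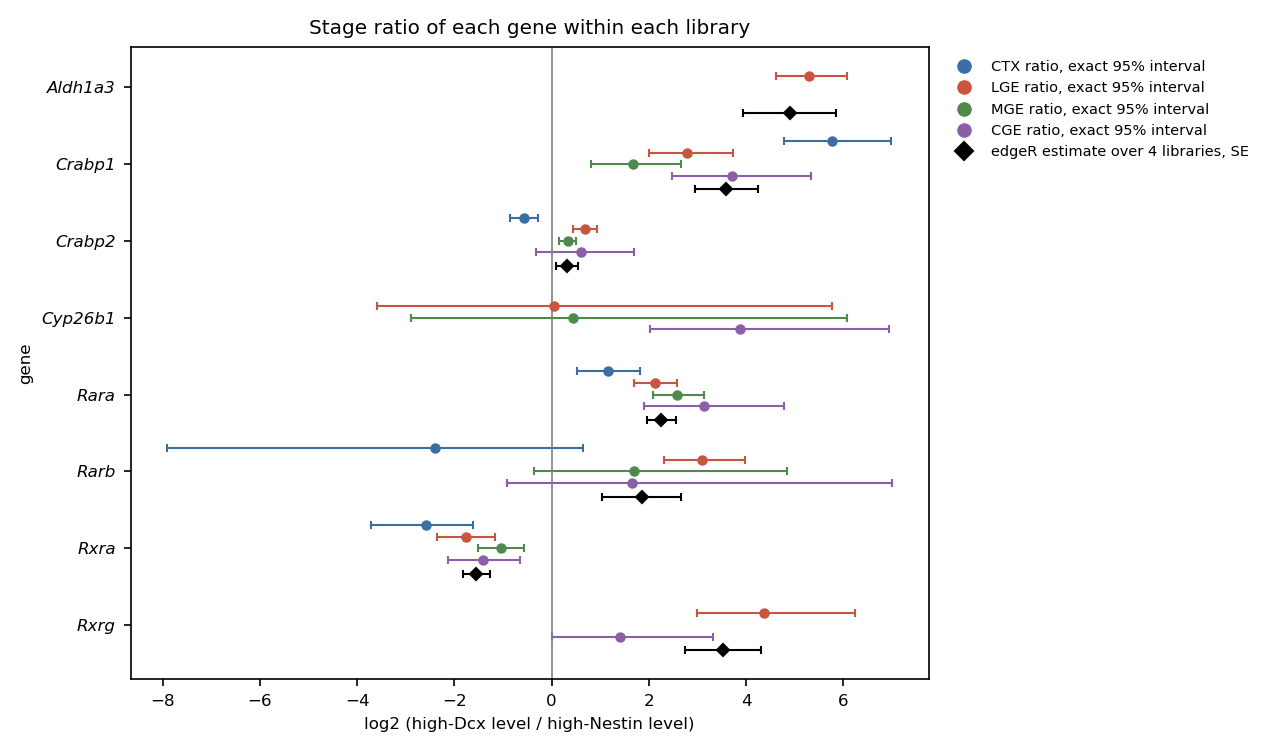
Ratio of the high-Dcx to the high-Nestin level on a log2 axis for each gene and library (circles, exact 95% intervals, drawn only where both stages held a UMI), with the edgeR estimate over the 4 libraries and its standard error (diamonds, absent for Cyp26b1, which was not tested). Rxra lies left of 0 in all 4 libraries, Crabp1 and Rara lie right of 0 in all 4, and Crabp2 lies left of 0 in CTX and right of 0 in LGE and MGE.

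*Crabp1* (ENSMUSG00000032291.8, chromosome 9, 54764748–54773110, plus strand) encodes the first of the cytoplasmic binding proteins. Its high-Dcx level was 57.3 CPM [51.7–63.4] in CTX, 42.9 [39.7–46.2] in CGE, 18.1 [15.999–20.5] in LGE and 7.70 [6.34–9.27] in MGE. Each step of that order had an interval that left out 1, and the smallest was CTX over CGE at 1.34 [1.18–1.52]. In high-Nestin cells it stood at 3.30 CPM in CGE, 2.62 in LGE, 2.42 in MGE and 1.06 in CTX, and no pair of these libraries differed beyond counting error. It was low in progenitors everywhere and higher in the neurons of every library, and its neuronal level was highest in CTX.

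The stage ratio of *Crabp1* was 54.2 [27.2–127] in CTX, 13.0 [5.54–40.2] in CGE, 6.92 [3.98–13.2] in LGE and 3.18 [1.75–6.33] in MGE. Unthinned CTX erythroid barcodes held 5.60 CPM of *Crabp1*, more than the CTX high-Nestin cells by which its ratio was divided. The log2 fold change over the libraries was 3.59 ± 0.65 (SE) with an adjusted p of 0.00537 in edgeR, higher in high-Dcx cells of 4 of 4 libraries. In LGE, cycling high-Dcx cells held 3.39 CPM [1.75–5.91] and mantle cells 47.0 CPM [39.9–54.9], a ratio of 13.9 [7.72–27.4], and cells past neither gate held 22.7 CPM [20.4–25.1], no less than the high-Dcx cells as a whole. Thinned to 3000 UMIs, 11.3% [9.17–13.8] of 768 CTX high-Dcx cells held a UMI, against 3.17% [2.48–3.98] in CGE, 2.34% [1.72–3.10] in LGE and 1.17% [0.760–1.73] in MGE. Without thinning these were 21.8%, 4.75%, 4.11% and 2.20%. No erythroid barcode held one at this depth, with limits of 2.08% in CTX, 15% in CGE, 5.26% in LGE and 5.66% in MGE. Unthinned, 1.79% of CTX, 4.76% of CGE, 1.61% of LGE and 0% of MGE erythroid barcodes did. The unthinned shares of high-Nestin cells were 0.910%, 3.03%, 1.03% and 0.783%, above that background in MGE only. The CGE level came from few cells: 108 of 2274 high-Dcx cells there held all of its 680 UMIs.

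*Crabp2* (ENSMUSG00000004885.5, chromosome 3, 87948666–87953376, plus strand) encodes the second binding protein, known for handing retinoic acid to the receptors in the nucleus. In high-Dcx cells it stood at 85.7 CPM [81.0–90.6] in MGE, 53.6 [49.9–57.6] in LGE, 23.6 [20.0–27.6] in CTX and 10.0 [8.53–11.7] in CGE. In high-Nestin cells it stood at 68.1 CPM [61.0–75.7] in MGE, 35.0 [30.9–39.5] in CTX, 33.3 [28.4–38.7] in LGE and 6.60 [3.16–12.1] in CGE, and CTX and LGE did not differ beyond counting error (1.05 [0.864–1.29]). The MGE was thus highest at both stages and the CGE lowest, with an MGE over CGE ratio of 8.54 [7.24–10.1] in high-Dcx cells. The high-Dcx order set it apart from *Crabp1*, which was highest in CTX and lowest in MGE.

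The share of cells with a UMI of *Crabp2* varied among the progenitors of the 4 libraries. Thinned shares were 17.1% [14.0–20.7] of 508 high-Nestin and 19.2% [17.6–21.0] of 2133 high-Dcx cells in MGE, with 0 of 53 erythroid barcodes (limit 5.66%), and 39.7% and 32.1% before thinning. Those of high-Nestin cells elsewhere were 10.1% [7.77–12.9] in LGE (limit 5.26%), 8.34% [6.57–10.4] in CTX, where erythroid barcodes gave 1.39% [0.169–4.93], and 2.45% [0.673–6.16] in CGE, under the limit of 15% there, and 21.7%, 23.8% and 5.45% unthinned. Its stage ratio was 1.61 [1.36–1.92] in LGE, 1.52 [0.805–3.23] in CGE, 1.26 [1.11–1.42] in MGE and 0.674 [0.549–0.824] in CTX. The interval lay below 1 in CTX, above 1 in LGE and MGE and across 1 in CGE. Over the libraries the log2 fold change was 0.32 ± 0.23 (SE) with an adjusted p of 0.278 in edgeR, and without CTX it was 0.61 with an adjusted p of 0.0110. Mantle cells set against high-Nestin cells gave -0.11, and over the alternatives the adjusted p ranged from 0.0110 to 0.735. Mantle cells held less than cycling high-Dcx cells in LGE (0.613 [0.484–0.774]) and CGE (0.304 [0.179–0.538]), and in MGE the ratio was 0.831 [0.688–1.007], across 1, while CTX had 14 cycling cells and is not compared.

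*Cyp26b1* (ENSMUSG00000063415.8, chromosome 6, 84571414–84593908, minus strand) encodes the degrading enzyme of this set. CGE high-Dcx cells held 308 UMIs, a level of 19.4 CPM [17.3–21.7]. High-Dcx cells held 4 UMIs in MGE, 3 in LGE and 0 in CTX. The CGE level was 70.6-fold [27.3–261] that of MGE and 92.8-fold [31.5–453] that of LGE. High-Nestin cells held 1 or 2 UMIs in each library, or 1.32 CPM [0.160–4.77] in CGE, and the stage ratio in CGE was 14.7 [4.04–122]. Transcripts of this enzyme were thus found mainly in 1 library and, there, in neurons.

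Within the CGE, mantle cells held 30.1 CPM [26.3–34.2] of *Cyp26b1* from 233 UMIs, and cycling high-Dcx cells held none, which allows up to 4.09 CPM. Few cells carried it: 80 of 2274 high-Dcx cells held a UMI, and at 3000 UMIs the share was 2.63% [2.01–3.38] of 2243 (3.52% unthinned), with 0 of 20 erythroid barcodes (limit 15%). The gene was left out of the stage test by the low-count filter. With no such filter its log2 fold change was 1.96 with an adjusted p of 0.158, and without CTX, where it passed the filter, 2.84 with an adjusted p of 0.0219 (edgeR).

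*Rara* (ENSMUSG00000037992.12, chromosome 11, 98927818–98974942, plus strand) encodes a retinoic acid receptor found at both stages in all 4 libraries. In high-Dcx cells it stood at 41.2 CPM [37.9–44.6] in MGE, 40.3 [37.1–43.7] in LGE, 29.1 [26.5–31.9] in CGE and 9.38 [7.19–12.02] in CTX. MGE and LGE did not differ beyond counting error, at a ratio of 1.02 [0.910–1.15]. High-Nestin levels were 9.27 CPM [6.79–12.4] in LGE, 6.87 [4.76–9.60] in MGE, 4.23 [2.89–5.97] in CTX and 3.30 [1.07–7.70] in CGE. The 3 eminences exceeded CTX in neurons, and the gene was higher in neurons than in progenitors of every region.

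The stage ratio of *Rara* was 8.82 [3.75–27.3] in CGE, 5.996 [4.24–8.74] in MGE, 4.35 [3.22–6.01] in LGE and 2.22 [1.43–3.51] in CTX. Over the libraries the log2 fold change was 2.25 ± 0.30 (SE) with an adjusted p of 0.00193 in edgeR, and the call held under all 15 alternatives. Thinned to 3000 UMIs, 12.6% [11.2–14.1] of MGE, 11.5% [10.2–13.0] of LGE, 8.52% [7.39–9.75] of CGE and 3.26% [2.12–4.77] of CTX high-Dcx cells held a UMI, and 23.2%, 23.4%, 17.5% and 6.93% did without thinning. No erythroid barcode did at that depth, with limits of 5.66%, 5.26%, 15% and 2.08%. An annotated small gene, *Gm22061*, lies within *Rara* on the same strand.

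*Rarb* (ENSMUSG00000017491.8, chromosome 14, 16430839–16819156, minus strand) encodes the receptor that is itself a target of the signal, and like *Aldh1a3* it was highest in LGE. In high-Dcx cells it stood at 23.9 CPM [21.5–26.6] in LGE, 2.08 [1.43–2.92] in CGE, 1.31 [0.786–2.04] in MGE and 0.151 [0.00383–0.843] in CTX. LGE was 11.5-fold [8.03–16.97] over CGE, and CGE and MGE did not differ beyond counting error (1.59 [0.880–2.97]). In high-Nestin cells it stood at 2.82 CPM [1.54–4.74] in LGE, 3.56-fold [1.29–11.3] over the 0.793 CPM of CTX, from 23 UMIs in all libraries. Its ratio to CGE, which held 1 UMI, was 4.28 [0.651–181], across 1, and the 2-fold call of LGE in these cells was lost after thinning, with a gate of 2.0 or with a pseudocount of 5 CPM.

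Stage ratios of *Rarb* were 8.48 [4.98–15.7] in LGE, 3.23 [0.780–28.6] in MGE, 3.16 [0.528–128] in CGE and 0.191 [0.00415–1.57] in CTX. The log2 fold change over the libraries was 1.85 ± 0.81 (SE) with an adjusted p of 0.0994 in edgeR, which misses the threshold. Without CTX, which held 7 UMIs in both stages together, it was 2.84 with an adjusted p of 0.00226, and over the alternatives the adjusted p ranged from 0.00226 to 0.265. In LGE, cycling high-Dcx cells held 2.82 CPM [1.35–5.19] and mantle cells 30.9 CPM [25.3–37.5], a ratio of 10.96 [5.73–23.5]. LGE cells past neither gate held 24.8 CPM [22.4–27.4], as much as the high-Dcx cells. Thinned to 3000 UMIs, 5.97% [4.97–7.10] of LGE high-Dcx cells held a UMI (10.2% unthinned), and 0 of 57 erythroid barcodes did (limit 5.26%). Without thinning, 3.23% of LGE erythroid barcodes held a UMI of *Rarb*, against 2.24% of LGE high-Nestin cells. The LGE high-Nestin level, and the ratios that rest on it, were thus not set apart from background. *Top2b* overlaps *Rarb* on the other strand, and whether reads were counted by strand is not given in the sources used here. *Top2b* stood at 568 CPM in LGE, 595 in MGE and 562 in CGE high-Dcx cells, where *Rarb* held 343, 19 and 33 UMIs, and at 332 CPM in CTX high-Dcx cells, where it held 1. In high-Nestin cells *Top2b* stood at 196 to 272 CPM, highest in LGE, and its part in the *Rarb* counts was not tested.

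*Rxra* (ENSMUSG00000015846.10, chromosome 2, 27676440–27762957, plus strand) encodes a retinoid X receptor and was the only gene of the set that was lower in high-Dcx than in high-Nestin cells of all 4 libraries. Its high-Nestin level was 13.9 CPM [8.57–21.2] in CGE, 13.3 [10.3–16.96] in MGE, 10.9 [8.18–14.2] in LGE and 9.12 [7.09–11.5] in CTX. Of these only MGE and CTX differed beyond counting error, at 1.46 [1.03–2.08]. Its high-Dcx level was 6.46 CPM [5.22–7.91] in MGE, 5.17 [4.11–6.42] in CGE, 3.21 [2.35–4.28] in LGE and 1.51 [0.725–2.78] in CTX.

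The high-Dcx over high-Nestin ratio of *Rxra* was 0.166 [0.0762–0.324] in CTX, 0.295 [0.195–0.445] in LGE, 0.373 [0.229–0.635] in CGE and 0.485 [0.350–0.675] in MGE. The log2 fold change was -1.55 ± 0.28 (SE) with an adjusted p of 0.00555 in edgeR, lower in high-Dcx cells of 4 of 4 libraries, and the call held under all 15 alternatives. In LGE mantle cells 2 UMIs were left, a level of 0.594 CPM [0.0720–2.15]. Thinned shares of high-Nestin cells were 6.75% [3.42–11.8] in CGE, 4.63% [3.04–6.71] in LGE, 3.94% [2.42–6.02] in MGE and 3.17% [2.10–4.58] in CTX, and those of high-Dcx cells 1.43%, 0.896%, 1.73% and 0.521%. Unthinned, the high-Nestin shares were 11.5%, 9.14%, 11.5% and 7.51% and the high-Dcx shares 3.43%, 2.25%, 4.26% and 1.28%. In CTX 0.694% [0.0176–3.81] of 144 erythroid barcodes held a UMI, so neither CTX share was above background. In the eminences no erythroid barcode held one at this depth, the limits being 15% in CGE, 5.66% in MGE and 5.26% in LGE, and no share of either stage was above its limit.

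*Rxrg* (ENSMUSG00000015843.6, chromosome 1, 167598384–167639623, plus strand), the retinoid X receptor known from the striatum, went the other way. In high-Dcx cells it stood at 16.5 CPM [14.5–18.8] in LGE, 7.001 [5.76–8.43] in CGE and 2.75 [1.96–3.74] in MGE, and CTX held 0 UMIs, which allows up to 0.454 CPM. LGE exceeded CGE 2.36-fold [1.88–2.99], and CGE exceeded MGE 2.55-fold [1.76–3.75]. High-Nestin cells held 4 UMIs in LGE, 4 in CGE and none in CTX or MGE. In CGE 4.76% of erythroid barcodes held a UMI without thinning, against 2.42% of high-Nestin cells. That CGE high-Nestin level was thus not set apart from background. Like *Rarb*, *Rxrg* was, among high-Dcx cells, highest in LGE and at or near 0 in CTX.

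The stage ratio of *Rxrg* was 20.5 [7.90–75.9] in LGE and 2.65 [1.008–9.91] in CGE. The log2 fold change was 3.52 ± 0.79 (SE) with an adjusted p of 0.0165 in edgeR, higher in high-Dcx cells of 3 of 4 libraries, with CTX at 0 in both stages. Without LGE the adjusted p was 0.119, without MGE 0.0536 and with no library block 0.0701, and over the alternatives it ranged from 0.00238 to 0.119. The LGE level rose from 1 UMI in cycling high-Dcx cells to 108 UMIs in mantle cells, 32.1 CPM [26.3–38.8], a ratio of 114 [20.0–4535]. At 3000 UMIs, 3.88% [3.08–4.82] of LGE, 1.34% [0.904–1.90] of CGE and 0.609% [0.325–1.04] of MGE high-Dcx cells held one (5.47%, 2.99% and 1.05% unthinned), and no erythroid barcode did, with limits of 5.26%, 15% and 5.66%.

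**Figure D3:**
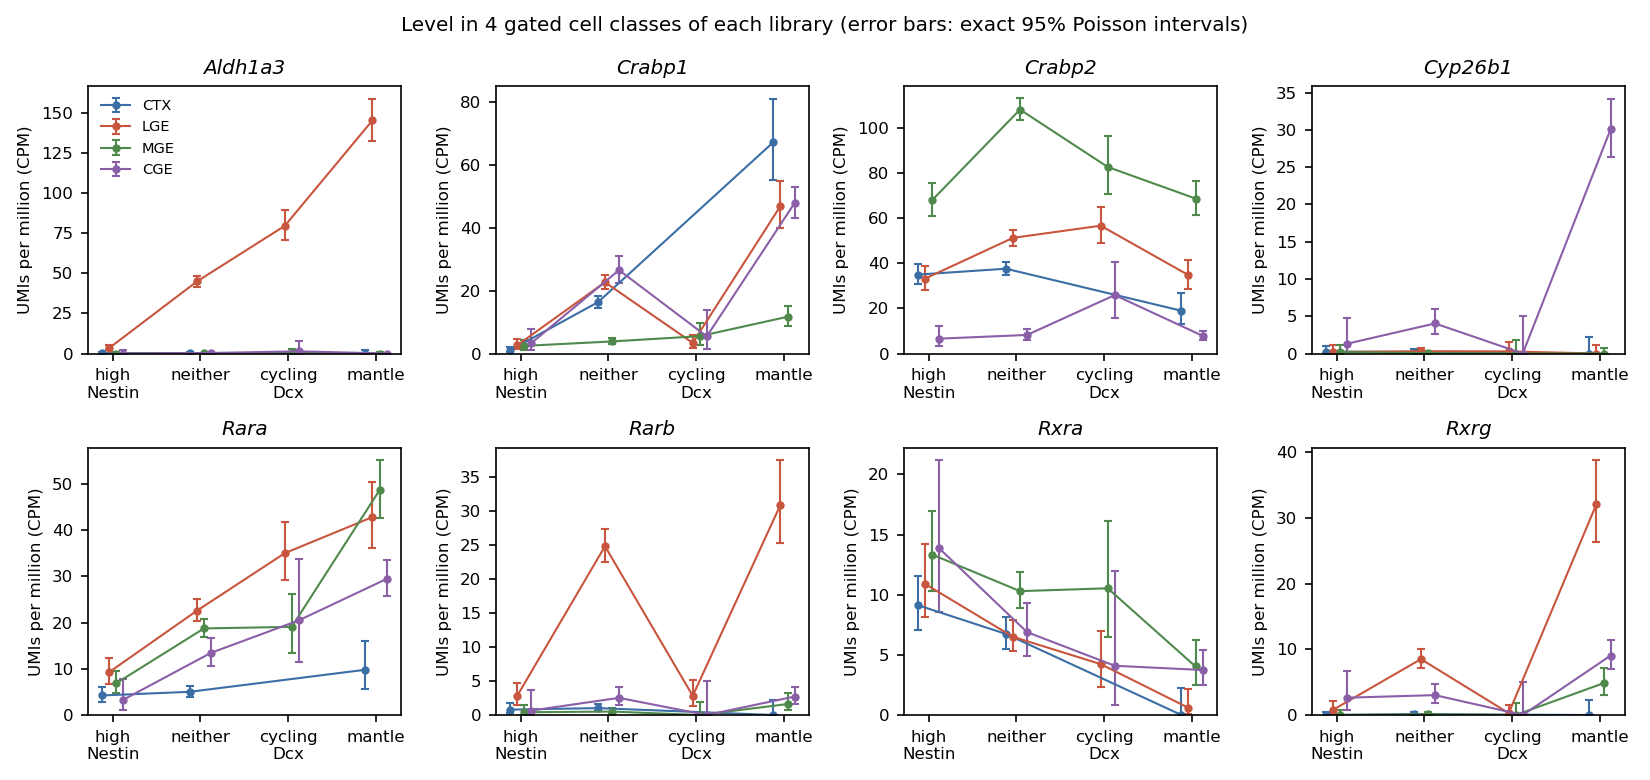
Summed level in UMIs per 1000000 (CPM, linear axes that start at 0) in high-Nestin cells, cells past neither gate, cycling high-Dcx cells and mantle cells, with exact 95% Poisson intervals and 1 coloured line per library. Aldh1a3 in LGE climbs through the classes to 145 CPM, whereas Rarb and Rxrg in LGE and Cyp26b1 in CGE are low in cycling cells, at 2.82, 0.282 and 0 CPM, and highest in mantle cells. Classes under 20 cells are not drawn, which leaves out the 14 cycling cells of CTX.

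Since *Aldh1a3*, *Rarb* and *Rxrg* all stood highest in LGE among high-Dcx cells, it was asked whether the same cells held them. For each gene the high-Dcx cells of a library were split into those with and without a UMI of it, and the summed levels of the other genes were compared per UMI. These intervals too are for counting alone and do not include variation from cell to cell, and a cell with no UMI may still express a gene. In LGE high-Dcx cells 42 ordered pairs of the 8 genes had enough UMIs, and the interval lay above 1 for 9, below 1 for 19 and across 1 for 14.

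LGE high-Dcx cells with a UMI of the synthesis gene held more of *Crabp2* and less of *Rarb*, *Crabp1* and *Rxrg*. The 460 LGE high-Dcx cells with *Aldh1a3* held 2.01-fold [1.73–2.33] more *Crabp2* and 1.30-fold [1.07–1.56] more *Rara* than the 1586 cells without it. *Rarb* was lower (0.507 [0.362–0.695]), as were *Crabp1* (0.295 [0.179–0.461]) and *Rxrg* (0.195 [0.102–0.340]). Of genes that mark kinds of LGE neuron, the transcription factor genes *Zfhx3* (824 against 388 CPM, 2.12-fold [2.02–2.23]), *Zfp503* (445 against 217 CPM, 2.05-fold [1.92–2.19]), *Isl1* (1.44-fold [1.35–1.52]) and *Six3* (1.42-fold [1.35–1.51]) were higher beside *Aldh1a3*, as was *Mpped2* (2131 against 1313 CPM, 1.62-fold [1.58–1.67]). Lower were *Ebf1* (0.803 [0.760–0.848]), *Tac1*, the gene of substance P (0.505 [0.432–0.588]), *Sp9* (0.476 [0.441–0.512]) and *Pcsk1n* (0.415 [0.347–0.492]). So were *Foxp1* (0.900 [0.840–0.963]), *Foxp2* (0.714 [0.653–0.779]) and the dopamine receptor gene *Drd1a* (0.246 [0.0876–0.558], from 6 UMIs).

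The 209 LGE high-Dcx cells with *Rarb* showed a partly different makeup. They held 91.9 CPM of *Crabp1* against 8.52 CPM in the 1837 cells without it, a ratio of 10.8 [8.38–13.9], and 55.0 against 11.5 CPM of *Rxrg*, a ratio of 4.78 [3.64–6.25]. *Aldh1a3* (0.435 [0.353–0.530]), *Crabp2* (0.366 [0.253–0.513]) and *Rara* (0.509 [0.353–0.714]) were lower. *Tac1* was 25.7-fold [22.8–29.1] higher, at 694 against 27.0 CPM, *Foxp1* 4.78-fold [4.52–5.06] and *Ebf1* 3.68-fold [3.51–3.85], both transcription factor genes of striatal projection neurons. *Drd1a*, the name given in the files to the dopamine receptor gene of the direct pathway, was 3.04-fold [1.83–4.91] higher, and *Penk*, the proenkephalin gene, 2.97-fold [1.39–5.95]. *Isl1* was higher beside *Rarb* (2.58-fold [2.42–2.74]), as it was beside *Aldh1a3*. *Foxp2* (2.38-fold [2.20–2.57]) and *Pcsk1n* (2.24-fold [1.96–2.55]) were higher beside *Rarb*, and *Mpped2* was lower (0.539 [0.510–0.569]). Median depth was 6989 UMIs with and 6409 without *Rarb*.

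The 112 LGE high-Dcx cells with *Rxrg* were closer to the *Rarb* cells than to the *Aldh1a3* cells. They held 4.22-fold [3.17–5.55] more *Rarb* and 6.77-fold [4.05–10.97] more *Drd1a*, but 0.171-fold [0.101–0.271] as much *Aldh1a3* and 0.262-fold [0.130–0.471] as much *Crabp2*. *Zfp503* was higher beside *Rxrg* too (1.73-fold [1.54–1.94]), and no UMI of *Sst* or *Npy* was found there, against 193 and 116 CPM in the cells without *Rxrg*. Low levels of such genes were not particular to the *Rxrg* cells. Beside *Aldh1a3*, *Sst* (0.172 [0.143–0.206]), *Npy* (0.294 [0.244–0.353]) and *Lhx6* (0.126 [0.0701–0.211]) were lower too. Beside *Rarb*, *Npy* (0.482 [0.386–0.594]) and *Lhx6* (0.171 [0.0776–0.328]) were lower. The 84 cells with *Crabp1* held 6.002-fold [4.64–7.70] more *Rarb*, 8.61-fold [7.70–9.61] more *Tac1* and 0.515-fold [0.383–0.678] as much *Aldh1a3*. Over all LGE high-Dcx cells *Aldh1a3* thus went with *Crabp2*, and *Rarb* with *Crabp1* and with *Rxrg*.

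**Figure D4:**
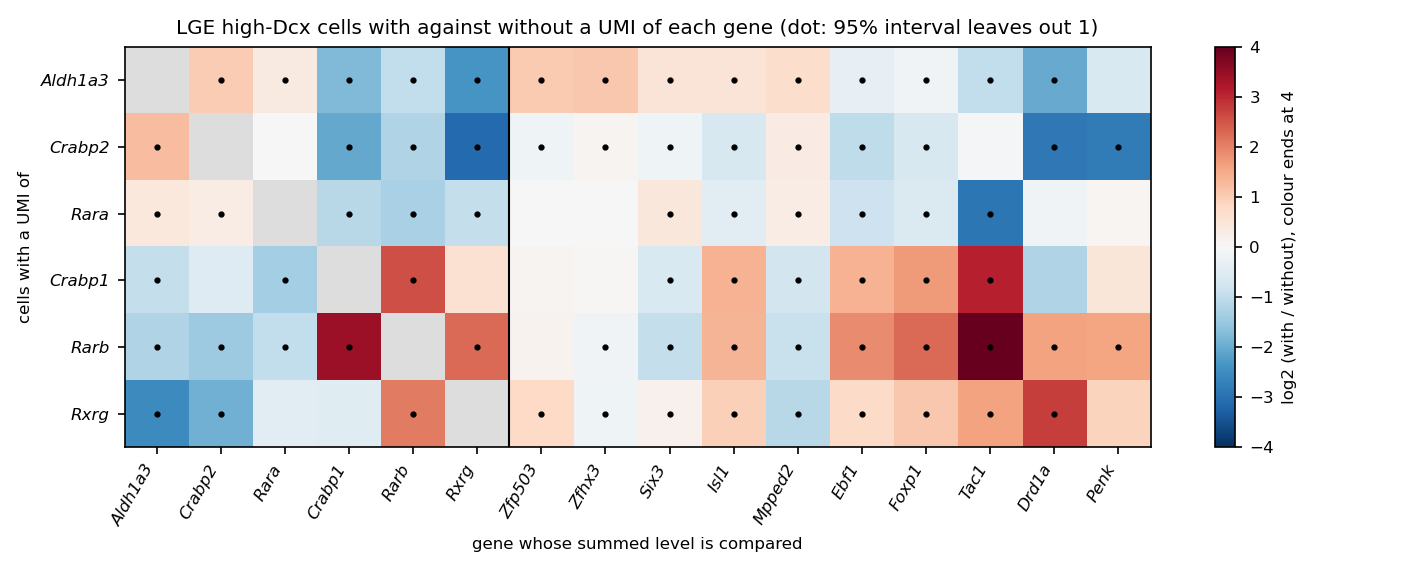
Log2 ratio of the summed level of each gene (columns) in LGE high-Dcx cells with a UMI of another gene (rows) to that in cells without it, with red for higher and blue for lower. A dot marks a 95% counting interval that leaves out 1, and grey marks the gene itself. The Aldh1a3 and Crabp2 rows are blue for Rarb, Crabp1 and Rxrg, whereas the Rarb row is red for Crabp1, Rxrg, Tac1, Foxp1 and Ebf1.

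Since these genes also differed between cycling and mantle cells, the pairs were counted again in the 559 LGE mantle cells alone, an alternative chosen after seeing the data. There, 10 of 30 pairs among the 8 genes stayed within their earlier interval, 16 moved out of it, and 4 whose earlier interval left out 1 turned direction. Beside *Aldh1a3*, *Crabp2* stood at 5.48-fold [3.74–8.07], *Rxrg* remained low at 0.241 [0.0863–0.542] and *Crabp1* at 0.306 [0.1496–0.564], and *Zfhx3* stood at 2.47-fold [2.24–2.72]. *Rarb* beside *Aldh1a3* came to 0.915 [0.525–1.52], no longer different beyond counting error, while *Aldh1a3* beside *Rarb* stayed at 0.385 [0.258–0.554]. *Crabp1* beside *Rarb* stayed high at 7.52-fold [5.43–10.5], but beside *Rxrg* it was 0.244 [0.0657–0.638], where all high-Dcx cells had given 0.722 [0.342–1.35]. *Rxrg* beside *Rarb* came to 1.99-fold [1.24–3.09], and *Rarb* beside *Rxrg* to 1.71 [0.936–2.93], across 1. *Rara* beside *Aldh1a3* turned to 0.622 [0.362–1.012]. Of the LGE neuron genes, *Ebf1* (1.20 [1.10–1.31]), *Tac1* (1.89 [1.55–2.31]) and *Foxp1* (1.16 [1.02–1.33]) turned from lower to higher beside *Aldh1a3*. *Sp9* (0.346 [0.279–0.425]), *Pcsk1n* (0.401 [0.299–0.529]) and *Foxp2* (0.444 [0.352–0.555]) remained lower, and no UMI of *Drd1a* was found there (0 [0–0.599]). *Drd1a* beside *Rarb* came to 0.455 [0.0522–1.82], from 2 UMIs. In mantle cells *Rara* instead went with *Npy* (3.14-fold [2.76–3.58]), *Sst* (2.97-fold [2.69–3.29]) and *Lhx6* (1.93-fold [1.47–2.52]), genes known from MGE-derived interneurons.

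In the CGE the degrading enzyme lay beside *Rxrg*. The 80 CGE high-Dcx cells with *Cyp26b1* held 47.5 against 5.44 CPM of *Rxrg*, a ratio of 8.74 [5.48–13.6], and 0.399-fold [0.160–0.830] as much *Rara*. *Foxp1* was 6.93-fold [6.04–7.94], *Pax6* 4.41-fold [3.76–5.15] and *Penk*, from 10 UMIs, 8.36-fold [3.65–17.5] higher. Higher too were *Zfhx3* (3.33 [2.95–3.75]), *Zfp503* (3.10 [2.42–3.93]), *Sp8* (2.65 [2.14–3.25]) and *Six3* (2.45 [2.19–2.73]). Lower were *Isl1* (0.433 [0.292–0.621]), *Mpped2* (0.544 [0.441–0.663]) and *Tac1* (0.199 [0.0240–0.727]). The interneuron genes did not go together: *Lhx6* was 0.0780-fold [0.0212–0.200] and *Npy* 0.155-fold [0.0824–0.266] as high, but *Sst* was 1.86-fold [1.69–2.05] higher. The cortical neuron genes *Neurod2* (3.87-fold [2.77–5.29]), *Neurod6* (2.74-fold [1.90–3.85]) and *Tbr1* (2.47-fold [1.60–3.67]) were higher beside *Cyp26b1* as well, and the CGE genes *Prox1* (0.173 [0.0986–0.281]) and *Nr2f2* (0.635 [0.557–0.720]) were lower. Beside *Rxrg* in CGE, *Neurod2* was lower (0.163 [0.0197–0.595]), as were *Prox1* (0.180 [0.101–0.297]) and *Nr2f2* (0.357 [0.297–0.425]), and no UMI of *Neurod6* or *Tbr1* was found. The part that cells of cortical kind had in the CGE values was not tested. The 68 CGE high-Dcx cells with *Rxrg* in turn held 8.15-fold [6.13–10.7] more *Cyp26b1*, 8.78-fold [7.31–10.5] more *Crabp1*, 7.67-fold [6.67–8.78] more *Foxp1* and 16.6-fold [8.17–32.5] more *Penk*. The 111 cells with *Crabp2* held no UMI of *Cyp26b1* (0 [0–0.208]) and none of *Crabp1* (0 [0–0.0937]).

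The pairing of *Crabp1* with *Rarb* recurred outside the LGE. The 108 CGE high-Dcx cells with *Crabp1* held 17.3-fold [8.22–36.6] more *Rarb*, 17.9-fold [16.3–19.6] more *Isl1* and 14.0-fold [12.8–15.3] more *Ebf1*, and 2.79-fold [1.98–3.83] more *Cyp26b1*. In MGE the 48 cells with *Crabp1* held 21.2-fold [7.07–58.4] more *Rarb*, 8.65-fold [7.27–10.2] more *Isl1* and 7.97-fold [6.92–9.16] more *Ebf1*. *Isl1* and *Ebf1* belong to the fixed LGE markers summed above. The part that cells of LGE kind had in these CGE and MGE values was not tested. In CTX, by contrast, the 170 cells with *Crabp1* held more of the excitatory neuron gene *Neurod2* (1.23-fold [1.16–1.31]) and less of *Eomes*, a gene of intermediate progenitors (0.322 [0.278–0.372]), and had no UMI of *Lhx6*, *Sst* or *Npy*. *Crabp2* in MGE went with the MGE genes *Lhx8* (487 against 232 CPM, 2.10-fold [1.98–2.22]) and *Nkx2-1* (1.57-fold [1.51–1.64]), and with little *Ebf1* (0.0280 [0.0170–0.0434]). In CTX the 54 cells with *Rara* held 6.17-fold [5.06–7.51] more *Sst*, 10.6-fold [6.29–17.7] more *Npy* and 6.27-fold [3.77–10.2] more *Lhx6*, and 0.765-fold [0.678–0.861] as much *Neurod2*.

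The profiles of the 8 genes were compared with those of 8492 genes over 12 profiles, the 4 libraries in 3 classes (high-Nestin, high-Dcx, neither), as Pearson's r of log2(CPM + 5). These are descriptions, as profiles of 1 library share its cells and depth. *Aldh1a3* was most like *Fgf3* (0.985), *Sowaha* (0.982) and *Rarb* (0.965), and *Rarb* was most like *Sowaha* (0.989) and *Aldh1a3* (0.965). Over the sums the synthesis gene and this receptor thus had like profiles, although LGE high-Dcx cells with a UMI of one held less of the other. *Rxrg* was most like *Zfp503* (0.968), *Cyp26b1* most like *Pdzrn3* (0.915), *Crabp1* most like *Jph4* (0.967), *Crabp2* most like *Gnas* (0.939), *Rara* most like *Top2b* (0.979) and *Rxra* most like *Nsmaf* (0.968). The lowest value within the set was that of *Crabp1* and *Rxra*, at -0.843.

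The rest of the pathway was read from a list of 30 genes for retinol handling, the other synthesis, degradation and receptor genes, and receptor partners. Of these 20 passed the filter, 6 were called higher in high-Dcx and 1 higher in high-Nestin cells, 13 were not called and 10 were too low to test, beside the 27.4% and 27.3% of all genes called in these directions. The median log2 fold change of the 20 was 0.23, against 0.01 over all genes. No UMI of *Aldh1a1*, *Aldh1a2* or *Cyp26c1* was found in high-Nestin or high-Dcx cells of any library, and *Cyp26a1* had at most 0.132 CPM in any, so *Aldh1a3* and *Cyp26b1* were the synthesis and degradation enzymes of their families that were detected in these cells at this depth beyond a few UMIs. *Rdh10*, the first oxidation step, stood at 2.57 to 5.93 CPM in the gated cells and was not called (log2 fold change 0.29 ± 0.41 SE, adjusted p 0.581, edgeR). Its stage ratio was 2.26 [1.25–4.42] in LGE and 0.453 [0.242–0.810] in CTX, on opposite sides of 1. In MGE (1.33 [0.792–2.32]) and CGE (1.27 [0.593–3.25]) the interval lay across 1.

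Upstream of the enzymes, *Stra6*, the retinol uptake receptor, was called higher in high-Dcx cells (3.45 ± 0.48 SE, adjusted p 0.00211, edgeR), with 9.70 CPM in LGE, 3.22 in CGE, 2.89 in MGE and 2.42 in CTX. In high-Nestin cells it stood at 0.806 CPM or less, so among the gated sums its peak too was in LGE neurons. Cells with endothelial markers held more, as given further on. *Fabp5*, a fatty acid binding protein that can also carry retinoic acid, was called higher in high-Dcx cells (0.57 ± 0.18 SE, adjusted p 0.0391, edgeR), at 1508 CPM in CTX neurons. In MGE its stage ratio lay below 1 (0.944 [0.911–0.978]).

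Of the other receptors, *Rxrb* stood at 44.2 to 61.4 CPM in all 8 sums and was not called (0.25 ± 0.09 SE, adjusted p 0.0525, edgeR), and *Rarg* stayed at 3.78 CPM or less. *Rarg*, *Rdh10* and the enzyme genes without a call were singled out after their values were seen. *Nr2f2*, an orphan receptor gene of the CGE, was called higher in high-Dcx cells, at 649 CPM in CGE and 1.60 in LGE neurons, and *Nr2f1* ranged from 64.1 CPM in LGE to 1462 CPM in CGE neurons with no call. The coactivator genes *Ncoa1* and *Ncoa2* and the thyroid receptor gene *Thra* were also called higher in high-Dcx cells, and the orphan receptor gene *Nr4a2* higher in high-Nestin cells, at 68.5 CPM in CTX. Of 12 genes listed as known targets of the signal, 6 were tested. *Meis1* was called higher in high-Dcx cells, at 126 CPM in LGE neurons against 2.72 CPM in CTX neurons. *Btg2* and *Tgm2* were called higher in high-Nestin cells. *Meis2*, *Foxp1* and *Tshz1* were not called, and the median log2 fold change over the 6 was -0.20. The stage ratios of these uncalled genes lay on opposite sides of 1 by library. In LGE they were 2.44 [2.37–2.51], 2.62 [2.42–2.85] and 2.59 [2.26–2.97]. In CTX they were 0.410, 0.740 and 0.624 and in MGE 0.218, 0.581 and 0.368, with all intervals below 1. In CGE they were 1.29 [1.21–1.39], 1.08 [0.892–1.33] and 1.18 [0.942–1.51].

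**Figure D5:**
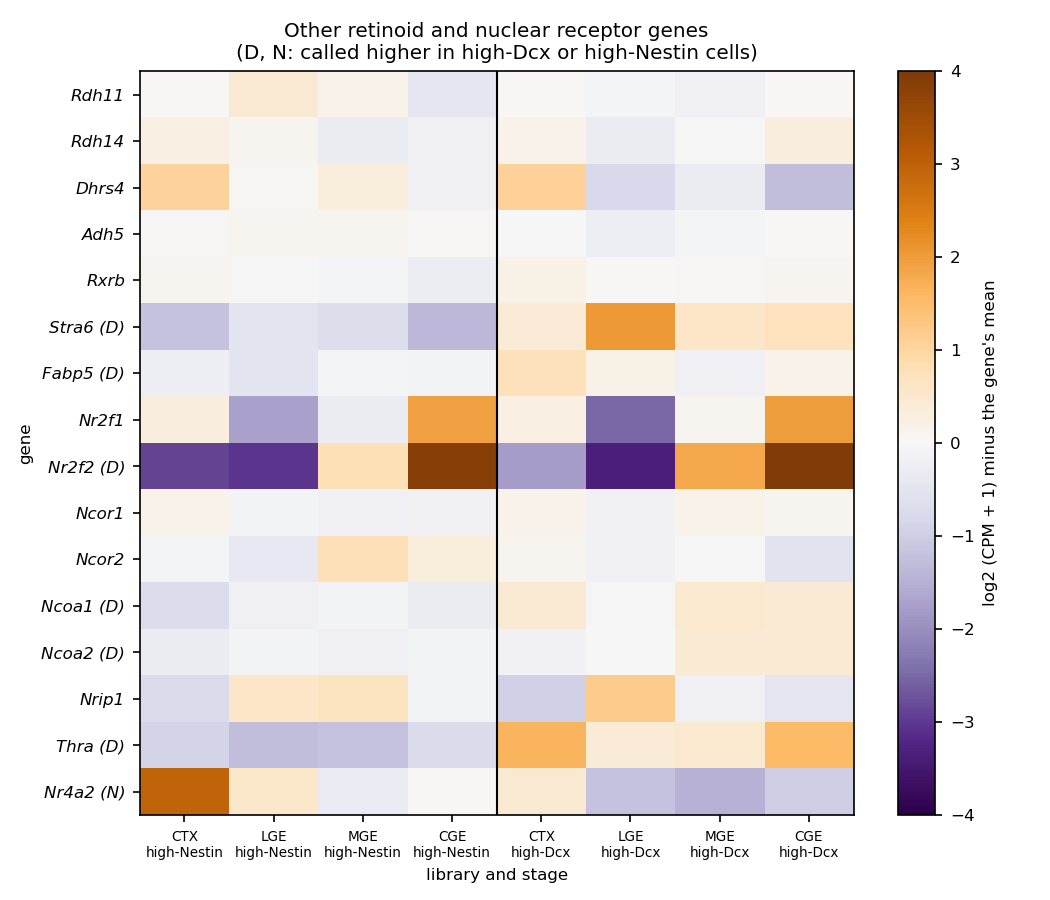
Log2 (CPM + 1) minus the gene's mean over the 8 sums for 16 other genes of retinoid handling and nuclear receptors, by library and stage, with orange for above and purple for below the mean. Stra6 is highest in LGE high-Dcx cells (9.70 CPM) and Nr4a2 in CTX high-Nestin cells (68.5 CPM), and Nr2f2 is low in LGE and highest in CGE.

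A few cells of other kinds were left among the kept cells and held some of these transcripts. Cells with at least 3 markers of pericytes or mesenchyme held 63 UMIs of *Rdh10*, 152 CPM [117–195], and 11 of *Aldh1a2*, 26.6 CPM [13.3–47.6], together with 55.6 CPM [35.2–83.4] of *Crabp1* and 29.0 CPM [14.98–50.7] of *Rarb*. Cells with endothelial markers held 8 UMIs of *Aldh1a3*, 39.6 CPM [17.1–78.0], below the level of LGE neurons. They held 13 UMIs of *Stra6*, 64.3 CPM [34.2–110], above the 9.70 CPM of LGE high-Dcx cells. Pericyte or mesenchyme cells held 24.2 CPM [11.6–44.4] of *Stra6*. With all such cells removed, the same 4 of the 8 genes were called higher in high-Dcx cells, *Rxra* alone higher in high-Nestin cells, and the 2-fold calls between libraries named the same genes.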

How the data were processed

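The authors deposited UMI counts per gene and barcode, 1 matrix per library, made with Cell Ranger (3.0.0 per the labels, 3.0.2 per the file headers) on mm10. The annotation release and the use of strand are not given in the sources used here. Labels describe sorting of live cells and the study's methods describe wild-type cells as unsorted. Library totals were 31451467 to 49794765 UMIs. Kept barcodes had over 1500 and under 4500 genes, under 5% mitochondrial and under 1% *Hbb* UMIs, and the highest doublet scores (0.8% per 1000 barcodes) were removed, which left 3541 CTX, 4662 LGE, 4735 MGE and 3194 CGE cells. Pairs of libraries shared 4 to 15 barcodes. Cells past both gates were left out. Stage sums were tested with edgeR 4.0.16 (quasi-likelihood, TMM, filterByExpr, library as block, Benjamini-Hochberg over 13414 genes), after a check on simulated counts. DESeq2 1.42.0 was an alternative. Libraries are single, so no test was made between regions. The 2-fold call used log2(CPM + 1) and at least 20 UMIs. Where no UMI was found, 3 counts set the upper limit. Erythroid barcodes had over 10% *Hbb* UMIs. The p-values measure the spread between 4 libraries of different regions. Other genes were named from the lists when past the stage test or at 20 CPM in a sum, and as the 3 most alike profiles. Of these, 1 pathway gene and 1 alike profile are not reported here. The members and lists were chosen with earlier results of these data known. Positions are those of GENCODE M21, matched by ID for 42462 of 43346 features.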

Additional observations from a re-analysis of the deposited data

Results flagged for a closer look

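The stage ratio of *Crabp2* lay on opposite sides of 1 in different libraries. Its high-Dcx level was 0.674 of the high-Nestin level in CTX, 1.61 times it in LGE and 1.26 times it in MGE. The difference between libraries was not tested, since each region had 1 library.

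Erythroid barcodes, which entered no comparison between stages, held more than 3 UMIs of a gene of the set in 4 cases. These were *Aldh1a3* in LGE at 7.45 CPM, *Crabp1* in CTX at 5.60 CPM, and *Crabp2* in CTX at 4.35 CPM and in MGE at 6.32 CPM. Each gene stood at 23.6 CPM or more in the high-Dcx cells of the same library. For *Aldh1a3* in LGE and *Crabp1* in CTX the erythroid level was above that of the high-Nestin cells of that library. Those high-Nestin levels, and the stage ratios divided by them, were thus not set apart from background. Some genes with 3 erythroid UMIs or fewer also had a higher unthinned share in erythroid barcodes than in high-Nestin cells. Among these were *Rarb*, *Crabp1* and *Cyp26b1* in LGE and *Crabp1* and *Rxrg* in CGE. For *Crabp2* the high-Nestin level was above the erythroid level in both CTX and MGE.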

How the results depend on the processing

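The number of the 8 genes called higher in high-Dcx cells was 4 and became 2 with no library block (no replicate block), where 5 were tested, and 2 to 7 when 1 library was left out, 7 without CTX and 2 without LGE. It stayed at 3 to 5 under the other alternatives, and *Rxra* was the 1 gene called higher in high-Nestin cells under all of them. The labels give no replicate numbers, and the block is the library that both sums come from. Without it 3170 genes in place of 3674 were called higher in high-Dcx cells. Of 98 gene values recomputed in the stage test, 90 kept direction and side of the threshold, 4 lost it, 3 gained it, and *Crabp2* turned to -0.11 with the mantle gate. The 2-fold calls in high-Nestin cells were the least stable: 1 gene became 0 after thinning, with a gate of 2.0 or with a pseudocount of 5 CPM, 2 with a gate of 1.0 or no doublet removal, and 0 to 1 with a library left out, 0 without LGE, and the gene was not always *Rarb*. Those in high-Dcx cells stayed at 3 to 5 of 8. In LGE mantle cells 4 of 30 ratios between pairs of the 8 genes turned: *Rara* beside *Aldh1a3* to 0.622, *Aldh1a3* beside *Rara* to 0.864, *Crabp2* beside *Rara* to 0.827 and *Rarb* beside *Crabp2* to 1.32. Of the neuron genes named, *Ebf1*, *Tac1* and *Foxp1* beside *Aldh1a3* turned to 1.20, 1.89 and 1.16 and *Drd1a* beside *Rarb* to 0.455. The causes were not tested. With no low-count filter the median log2 fold change of all genes was 0.11, against 0.01. *Rarb*, *Rxrg*, *Aldh1a3* and *Cyp26b1* held only 6 to 23 UMIs over all high-Nestin cells, so their progenitor values have wide intervals.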
